A study of Mus musculus with 6 samples.

Results

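The 10 genes described here are the regulators that turn an airway epithelial cell into a multiciliated cell, with the 2 rootletin genes of the cilium's anchor: Gmnc, Mcidas, Ccno, Myb, Trp73, Foxj1, Rfx2, Rfx3, Crocc and Crocc2. They were selected by gene symbol from the 54532 genes of the deposited count table, and all 10 had a row and passed the filter that left 18689 genes for testing. The list was chosen by readout, since it was drawn up after the genotype difference of these libraries was known. The values of the 10 genes are therefore given as a description, without p-values.

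Lungs of untreated mice aged 2 months were perfused and their RNA sequenced, with 3 wild type (WT) and 3 ISM1-/- animals (labelled ISM1-KO) and 1 library per animal. ISM1-/- mice lack Isthmin-1, a secreted protein of the lung and airway. The WT mice were purchased C57BL/6J animals and the knockout was made in-house on the C57BL/6J background, so genotype and source of animals cannot be told apart. Both groups received no allergen.

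Multiciliated cells line the airways and carry many motile cilia, which beat to move mucus out of the lung. Gmnc and Mcidas, nuclear proteins without a DNA-binding domain of their own, act with the E2F factors to start the programme, and Ccno, Myb and Trp73 follow or assist them while centrioles multiply. Foxj1 with Rfx2 and Rfx3 then switches on the genes for the motile axoneme. Each new cilium is anchored in the cell by a rootlet, a striated fibre built mainly of rootletin, the product of Crocc.

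Ism1, the targeted gene, gave WT counts of 3098, 3215 and 2975 beside 2784, 2508 and 2953 in libraries that carry the ISM1-/- label. The log2 fold change was -0.19 ± 0.0709 (SE), which did not pass the test (edgeR's quasi-likelihood test, adjusted p = 0.217), so these gene counts do not check the genotype label, and counts over a whole gene cannot show the loss of 1 part of it. Total counts were 37606133 to 42345042 per library. Across all genes tested, 882 passed an adjusted p of 0.1, of which 624 were lower and 258 were higher in the libraries labelled ISM1-/-. Cardiomyocyte markers summed to 1667 CPM in WT replicate 1 and to 299.2 to 652.7 CPM in the other 5 libraries, so that WT replicate 1 stood apart in heart muscle RNA.

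All 10 genes had a lower mean in the libraries labelled ISM1-/-, and their log2 fold changes ran from -0.82 for Mcidas to -0.18 for Crocc, with a median of -0.49 beside 0.00 over all genes tested. Ccno, Trp73, Foxj1 and Crocc2 passed the adjusted p of 0.1, which makes 4 of 10 lower beside 3.34% of all genes tested, and 0 of 10 higher beside 1.38%. None of the 10 was at least 2-fold lower and past the threshold, as were 0.284% of all genes. In 9 of the 10 the highest library labelled ISM1-/- lay below the lowest WT library, which was so for 12.3% of all genes, and in 0 of 10 did they lie above, as in 9.33% of all genes. Gmnc was the one with overlapping groups. Fewer cells of a type and less RNA per cell cannot be told apart in whole lung RNA.

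**Figure D1:**
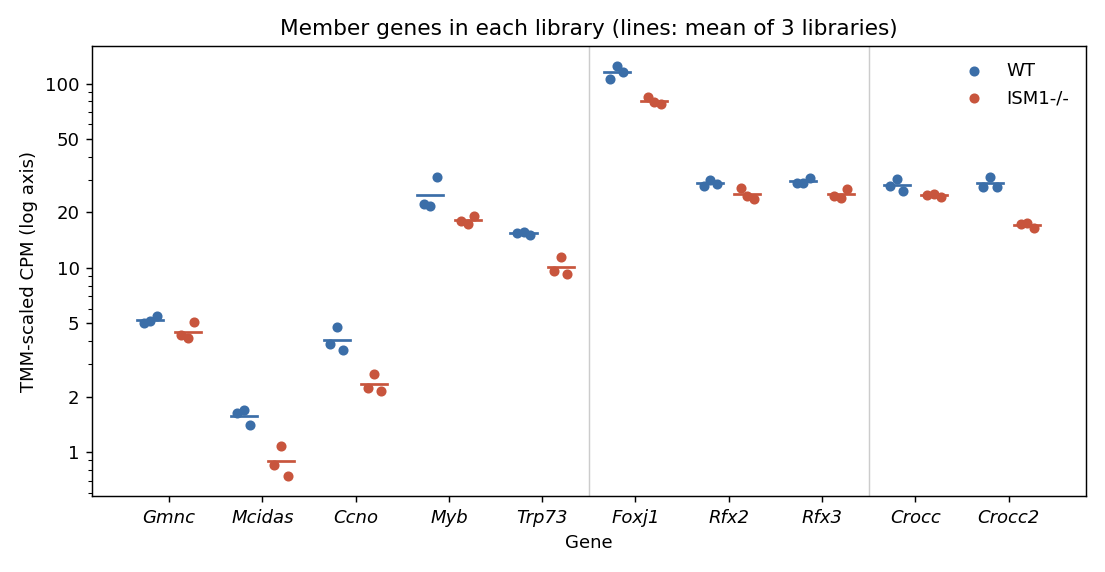
Level of each of the 10 genes in every library, as TMM-scaled CPM on a log axis, with WT in blue, ISM1-/- in red and a line at each mean of 3 libraries. Grey lines divide the inducers, the transcription factors Foxj1, Rfx2 and Rfx3, and the rootletin genes. Groups are apart for every gene except Gmnc, and the gap is wide for Mcidas, Ccno, Trp73, Foxj1 and Crocc2.

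Among the inducers, Gmnc and Mcidas, which stand at the head of the programme, differed in size. Gmnc (chromosome 16, 26913553 to 26991652, minus strand, GRCm38) was measured at 4.99, 5.13 and 5.48 CPM in WT and 4.30, 4.16 and 5.05 CPM in ISM1-/- libraries. The third ISM1-/- library lay inside the WT range, and the log2 fold change of -0.21 ± 0.129 (SE) was among the small ones. Mcidas, the coactivator multicilin, was the least abundant of the 10, with WT counts of 61, 70 and 54 and ISM1-/- counts of 36, 41 and 29. These are 1.62, 1.69 and 1.40 CPM against 0.847, 1.08 and 0.743 CPM. The groups did not overlap, and the ISM1-/- mean was 56.8% of the WT mean. The log2 fold change was -0.82 ± 0.231 (SE), the widest error of the 10, and Mcidas did not pass the threshold.

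Ccno, a cyclin-like protein needed for the mass production of centrioles, is the gene next to Mcidas. Ccno (chromosome 13, 112987802 to 112990777) and Mcidas (112993845 to 113000394) lie on the plus strand with 3067 bases between them. Ccno gave WT counts of 145, 197 and 139 and ISM1-/- counts of 95, 100 and 84, or 4.06 ± 0.606 CPM against 2.34 ± 0.258 CPM (SD, n = 3). All 3 ISM1-/- libraries were below the 3 WT libraries, at a log2 fold change of -0.80 ± 0.169 (SE), much like its neighbour. Cdc20b, which starts 34716 bases beyond Mcidas on the same strand and belongs to the same ciliogenesis locus, gave WT counts of 81, 72 and 48 and ISM1-/- counts of 52, 31 and 49. Its groups overlapped, and the log2 fold change of -0.63 ± 0.269 (SE) did not pass edgeR's test (adjusted p = 0.287). Gpx8 lies inside Cdc20b on the other strand, so these Cdc20b counts are uncertain.

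Trp73, a relative of p53 that acts above Foxj1, Rfx2 and Rfx3 in multiciliated cells, was steady among the WT animals. It was measured at 15.4, 15.6 and 15.1 CPM in WT and at 9.55, 11.4 and 9.28 CPM in ISM1-/- libraries. The ISM1-/- libraries were at 65.5% of the WT mean with no overlap, and the log2 fold change was -0.61 ± 0.0985 (SE). Trp73os, an antisense gene that overlaps it, had at most 5 counts in any library.

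Myb, a factor of early multiciliated precursors and of dividing blood progenitors, had an uneven WT group. Its level was 22.1, 21.6 and 31.2 CPM in WT and 18.0, 17.2 and 19.0 CPM in ISM1-/- libraries, at a log2 fold change of -0.47 ± 0.132 (SE). WT replicate 3 was far above the other WT libraries, and without it the log2 fold change was -0.27. The 8 proliferation markers moved in the same library: they summed to 59.5, 57.5 and 90.0 CPM in WT and 82.1, 71.7 and 65.0 CPM in ISM1-/- libraries, led by Mki67 at 39.4 CPM in WT replicate 3. None of the 8 passed the test. The part of proliferating cells in the Myb difference was not tested. Among markers of blood progenitors, Mpo, Elane and Gata1 were too low for the test, and none of the others passed. Prtn3, with 16 to 39 counts, had groups apart and lower, at a log2 fold change of -0.68. Cd34 had groups apart and higher, at 0.10. Flt3 and Gata2 had overlapping groups, at -0.05 and -0.13. Kit, which mast cells and other cells of the lung also express, overlapped too. Its level was 257 ± 5.80 CPM in WT and 275 ± 18.8 CPM in ISM1-/- libraries (SD, n = 3). The antisense gene Gm26577 overlaps Myb, with 4 to 33 counts beside 651 to 1205 counts for Myb.

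Of the transcription factors that drive motile cilium genes, Foxj1 had the largest fold change and Rfx2 and Rfx3 smaller ones. Foxj1 (chromosome 11, 116330704 to 116335399, minus strand) gave WT counts of 3991, 5160 and 4488 beside 3612, 3029 and 3032 for ISM1-/-. Scaled to the libraries these were 106, 124 and 116 CPM against 84.9, 79.8 and 77.7 CPM. The lowest WT library stood well above the highest ISM1-/- library, and the log2 fold change was -0.51 ± 0.0711 (SE).

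Rfx2 and Rfx3 bind the X-box of ciliary genes, and both were at 87.3% and 85.1% of their WT means, respectively. Rfx2 was measured at 27.8, 30.0 and 28.5 CPM in WT and 27.1, 24.6 and 23.7 CPM in ISM1-/- libraries, with a log2 fold change of -0.20 ± 0.0733 (SE). The first ISM1-/- library almost reached the WT range. Rfx3 was at 28.9, 28.8 and 30.7 CPM in WT and at 24.4, 24.0 and 26.9 CPM in ISM1-/- libraries, with a log2 fold change of -0.23 ± 0.0704 (SE). Neither passed the threshold, and their groups were apart by a small step.

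The rootletin genes had nearly equal counts in WT and unequal ones in ISM1-/- libraries. Crocc, which encodes rootletin and also serves the linker between centrioles in cells without motile cilia, was at 27.7, 30.3 and 26.2 CPM in WT and 25.0, 25.2 and 24.1 CPM in ISM1-/- libraries. Its log2 fold change of -0.18 ± 0.0720 (SE) was the smallest of the 10. Crocc2, the rootletin-like paralog, was at 27.5, 31.2 and 27.5 CPM in WT and 17.3, 17.6 and 16.4 CPM in ISM1-/- libraries. Crocc2 thus stood at 59.5% of its WT mean where Crocc stood at 88.2%, and its log2 fold change of -0.75 ± 0.0765 (SE) came from groups far apart. Crocc (chromosome 4, 141016637 to 141060550, minus strand) and Crocc2 (chromosome 1, 93168725 to 93231072, plus strand) are paralogs on different chromosomes, and how reads that map to both were counted is not given in the sources used here.

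Levels between genes can be compared only per length, for which the deposited FPKM (counts scaled by the library total and by kilobase of gene length) were used. Foxj1 led with 44.1 ± 3.48 FPKM in WT and 30.7 ± 1.69 FPKM in ISM1-/- libraries (SD, n = 3). Rfx2, Myb, Rfx3 and Crocc followed in WT at 11.8 ± 0.462, 10.2 ± 2.21, 8.98 ± 0.336 and 8.91 ± 0.640 FPKM, and neighbours in that order overlapped in their library ranges. Trp73 at 6.30 ± 0.103, Crocc2 at 4.03 ± 0.296, Ccno at 2.54 ± 0.375, Gmnc at 2.05 ± 0.101 and Mcidas at 0.660 ± 0.0632 FPKM each lay apart from the next in WT. In ISM1-/- libraries Ccno fell to 1.46 ± 0.169 FPKM and its range then overlapped that of Gmnc at 1.77 ± 0.168 FPKM, so the order of those genes was no longer clear. The order also rests on the gene length. The deposited FPKM divide 7 of the 10 genes by a shorter length than the length column of the same table gives, such as 3159 against 8266 bases for Crocc, and with that column each of the 7 is lower by over 1.5 times. Crocc2, with the same length in both, then comes second in WT at 4.03 ± 0.296, with a library range that overlaps that of Rfx2 at 3.94 ± 0.154. Crocc at 3.40 ± 0.244, Myb at 2.80 ± 0.608, Trp73 at 2.79 ± 0.0456 and Rfx3 at 2.68 (range 2.61 to 2.79) follow with neighbours that overlap, and Ccno at 1.59 ± 0.235, Gmnc at 0.908 ± 0.0449 and Mcidas at 0.660 ± 0.0632 come last and apart. Foxj1 at the top and Ccno, Gmnc and Mcidas at the bottom therefore hold with both lengths, and the order between them does not. The library comparison of any single gene is unaffected by its length.

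Within each genotype the 10 genes did not rise and fall as a block. After each genotype's mean was taken off, the correlation over the 6 libraries was above 0 in 22 of the 45 pairs of genes, with a median r of -0.01. Crocc and Crocc2 deviated together (r = 0.92), as did Ccno and Crocc2 (r = 0.92), Mcidas and Trp73 (r = 0.93), Gmnc and Rfx3 (r = 0.98), and Foxj1 and Rfx2 (r = 0.84). Mcidas and Gmnc deviated in opposite ways (r = -0.86). Only 6 libraries lie behind each value, with 4 degrees of freedom left after the means, and the points of a pair share their libraries and their scaling, so these are descriptions of 6 animals. WT replicate 2 had the highest WT value for 7 of the 10 genes and WT replicate 3 for the other 3.

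In the third ISM1-/- library the 10 genes and the markers of multiciliated cells stood differently. It had the lowest ISM1-/- value for 7 of the 10 genes, among them Foxj1, Mcidas, Ccno, Trp73 and Crocc2, and the highest for Gmnc, Myb and Rfx3. Of 31 multiciliated cell markers, mostly parts of the motile axoneme, the same library had the highest ISM1-/- value for 25 and the lowest for 5. Dnah9, an outer arm dynein, was at 39.7, 39.1 and 45.4 CPM in the ISM1-/- libraries, while Foxj1 was at 84.9, 79.8 and 77.7 CPM. The difference between the sets was noticed in these values and was not tested.

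**Figure D2:**
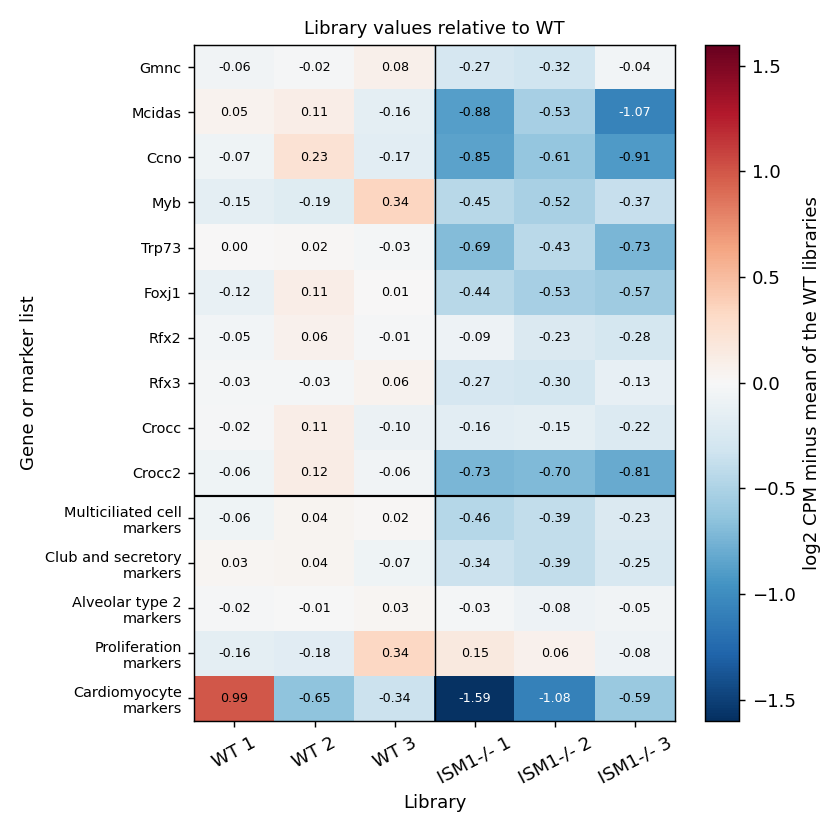
Each library's log2 CPM minus the WT mean for the 10 genes (top) and the mean over each marker list (bottom, after adding 0.5 CPM), with blue for lower and red for higher. The ISM1-/- columns are blue for Mcidas, Ccno, Trp73, Foxj1 and Crocc2, the multiciliated markers are weakest in ISM1-/- replicate 1 at -0.46, alveolar type 2 markers stay near 0, and cardiomyocyte markers stand at 0.99 in WT replicate 1.

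The multiciliated cell markers were listed apart from the 10 genes, with earlier results on ciliary genes of these libraries known. Their counts and p-values are therefore a description. Of 31 tested, 21 were lower and 0 were higher by edgeR's quasi-likelihood test at an adjusted p of 0.1. Beside these stand 3.34% lower and 1.38% higher over all genes tested. The median log2 fold change of the markers was -0.41. Dnah9 fell by 0.51 on the log2 scale (SE 0.0744, adjusted p = 0.0153, edgeR), from 58.8 ± 2.34 to 41.4 ± 3.50 CPM (SD, n = 3). Cdhr3, a cadherin-like surface protein of ciliated cells, fell from 68.9 ± 2.90 to 51.4 ± 3.63 CPM (log2 fold change -0.42, adjusted p = 0.0199, edgeR), and Pifo, a protein of the cilium base, from 9.22 ± 0.0722 to 6.17 ± 0.450 CPM (log2 fold change -0.58, adjusted p = 0.0249, edgeR). Dynlrb2, a dynein light chain of cilia, and Ak7, an axonemal adenylate kinase, fell by 0.48 and 0.54 on the log2 scale (adjusted p = 0.0232 and 0.0425, edgeR). Tekt4, Lrriq1, Ccdc146 and 1110017D15Rik also had groups apart and passed, at log2 fold changes of -0.54, -0.54, -0.55 and -0.50. Sec14l3 and Tppp3, the most abundant of the list, did not pass the test, at 1650 ± 158 and 1570 ± 111 CPM for Sec14l3 and 407 ± 27.6 and 377 ± 24.5 CPM for Tppp3. Spag6, at 0.229 ± 0.0148 and 0.431 ± 0.201 CPM, had the only higher ISM1-/- mean of the 31, while its paralog Spag6l was at 19.9 ± 1.61 and 14.9 ± 2.06 CPM (adjusted p = 0.0830, edgeR). The number of markers that passed varied with the libraries kept: it was 1 without WT replicate 2, 6 without WT replicate 3, 4 without ISM1-/- replicate 1 and 6 without ISM1-/- replicate 2, and the number over all genes also fell, from 882 to 150 without WT replicate 2.

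**Figure D3:**
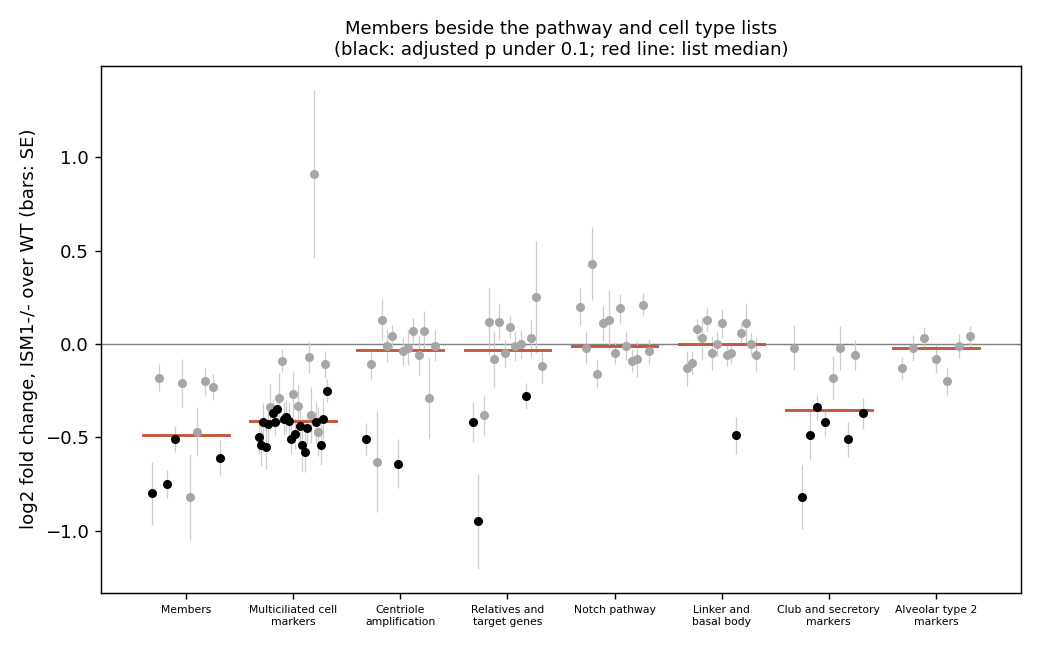
Log2 fold change (ISM1-/- over WT) of each tested gene with its SE, for the 10 genes and 7 lists, where black points passed an adjusted p of 0.1 and a red line marks the list median. The medians are -0.49 for the 10 genes, -0.41 for multiciliated markers and -0.36 for club and secretory markers. They are between -0.03 and 0.00 for the other lists shown. Not shown are the basal, neuroendocrine, cardiomyocyte, proliferation and blood progenitor lists, with medians of -1.01, -0.25, -1.07, 0.05 and -0.05.

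To place the 10 genes beside the ciliated cell RNA of each lung, each was divided by the marker level of its own library. The markers are mostly axoneme genes, which Foxj1, Rfx2 and Rfx3 switch on, so their level is not a count of cells. Against the summed CPM of the 31 markers, which was 3093, 3523 and 3481 in WT and 2793, 2977 and 3149 in ISM1-/- libraries, the log2 difference between genotypes was -0.65 for Mcidas, -0.61 for Ccno, -0.57 for Crocc2, -0.44 for Trp73, -0.33 for Foxj1 and -0.27 for Myb. It was -0.06 for Rfx3, -0.03 for Gmnc, -0.02 for Rfx2 and 0.00 for Crocc. Sec14l3 makes up much of that sum and moved little, so the ratio was also taken against the mean log2 CPM of the same markers. On that scale the difference was -0.47 for Mcidas, -0.43 for Ccno, -0.39 for Crocc2, -0.26 for Trp73, -0.15 for Foxj1 and -0.08 for Myb. Ccno and Crocc2 kept groups apart on both scales, those of Mcidas, Trp73 and Foxj1 were apart against the sum and overlapped here, and those of Myb overlapped on both. Gmnc, Rfx2, Rfx3 and Crocc lay on the other side, at 0.15, 0.16, 0.13 and 0.18. On this scale every ISM1-/- library was above every WT library for Gmnc and Rfx3, and the groups overlapped for Rfx2 and Crocc. Mcidas, Ccno, Trp73 and Crocc2 each had a lower log2 fold change than any of the 31 markers. By contrast, 5 markers were lower than Foxj1 and 27 were lower than each of Gmnc, Rfx2, Rfx3 and Crocc. The lowest marker, Pifo, was at -0.58 (SE 0.103), beside -0.61 (SE 0.0985) for Trp73 and -0.82 (SE 0.231) for Mcidas. The ranking leaves out these errors and was not tested.

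**Figure D4:**
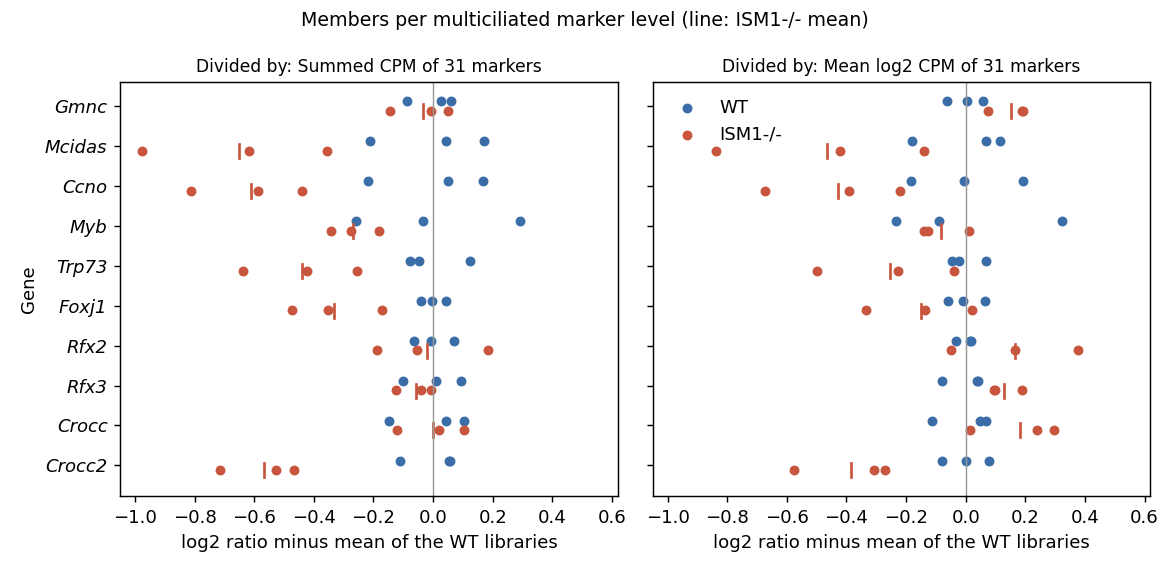
Log2 ratio of each of the 10 genes to the multiciliated marker level of its library, minus the WT mean, with the summed CPM of 31 markers (left) or their mean log2 CPM (right) as the divisor, each point a library. Crocc2 and Ccno stay below WT on both scales, while Gmnc, Rfx2, Rfx3 and Crocc lie around 0 on the left and at a mean of 0.13 to 0.18 on the right.

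Promoters matched by symbol for 9 of the 10 genes, all but Foxj1. The RefSeq promoters (GRCm38.p6, 250 bases before to 50 after each start) were searched on both strands for GTTGCC, the half-site of the X-box that RFX factors bind. It occurs in 7 of the 9 genes (Ccno, Mcidas, Crocc, Crocc2, Trp73, Rfx2 and Rfx3) beside 14.1% of all 27025 genes with a RefSeq promoter. Counted by promoter, since some genes have several, it is in 7 of the 12 promoters of these genes and in 12.5% of all 32851. Windows around these matches are shown because they are the 1 letter pattern that most of the genes share, with the half-site, or its reverse complement GGCAAC, in capitals and the gene's own strand read 5′ to 3′:
Ccno (chr13:112987552-112987625, plus strand): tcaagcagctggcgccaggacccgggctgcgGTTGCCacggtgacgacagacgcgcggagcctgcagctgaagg
Mcidas (chr13:112993636-112993715, plus strand): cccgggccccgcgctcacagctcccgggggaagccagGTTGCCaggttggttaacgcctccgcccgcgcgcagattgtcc
Crocc (chr4:141060564-141060643, minus strand): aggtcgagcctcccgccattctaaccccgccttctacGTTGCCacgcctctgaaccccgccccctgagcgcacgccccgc
Rfx2 (chr17:56831082-56831161, minus strand): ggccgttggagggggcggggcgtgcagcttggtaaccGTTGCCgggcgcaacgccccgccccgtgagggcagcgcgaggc
Crocc2 (chr1:93168421-93168450, plus strand): gaaaccgcttcaGGCAACagtgttccttag
Trp73 (chr4:154139856-154139885, minus strand): tccaggcgaggaGGCAACgctgcagcccag
Rfx3 (chr19:28011118-28011147, minus strand): gttatagcaaccGTTGCCttgtgaatcaag

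The capitals begin at position -219 of Ccno, -195 of Mcidas, -61 of Crocc and -116 of Rfx2 from the RefSeq start, and at position 11 of Crocc2, 3 of Trp73 and 32 of Rfx3 after it, which lie inside the transcript. For Crocc2 and Trp73 that start is 302 and 333 bases from the start of the gene in the count table. The half-site was present in the genes with the largest log2 fold changes (Mcidas, Ccno, Crocc2, Trp73), of which Mcidas did not pass the threshold. It was also present in Crocc, Rfx2 and Rfx3, which differed little. It was absent from Gmnc, which differed about as little, and from Myb, at a log2 fold change of -0.47. Foxj1, at -0.51, had no promoter to search. Among the genes searched, presence of the half-site did not separate them by the size of the difference, with only Gmnc and Myb lacking it. The variant half-site GTTACC was found in Gmnc and Rfx2 and in 8.16% of all genes, the forkhead core TGTTTA in Crocc2 and Myb and in 15.1%, and the MYB core AACGG in Crocc, Crocc2, Rfx2 and Rfx3 and in 19.6%. TTGGCGC, the E2F core, was found in Trp73 alone of the 9 and in 2.85% of all genes. A match gives letters in a window, not a bound site.

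Of 59 other genes listed around the programme, called other programme genes below, 56 were tested. They cover centriole amplification, relatives and partners of the 10 genes, Notch signalling that sets ciliated against secretory fate, and rootlet, centriole linker and basal body. By edgeR's test 6 were lower and 0 were higher, beside 3.34% and 1.38% of all genes tested. The median log2 fold change was -0.02. Many of these genes, such as Trp53 and Pcm1, are not particular to multiciliated cells, so that median does not describe the multiciliated programme. Deup1, which builds the deuterosome where centrioles are made in multiciliated cells, was measured at 5.70, 5.95 and 5.33 CPM in WT and 3.32, 3.93 and 3.67 CPM in ISM1-/- libraries (log2 fold change -0.64, SE 0.129, adjusted p = 0.0369, edgeR). Ccdc78, another deuterosome protein, was at 24.2 ± 2.22 and 17.0 ± 0.973 CPM (SD, n = 3), with a log2 fold change of -0.51 (SE 0.0871, adjusted p = 0.0231, edgeR). Both groups were apart. The 12 other genes of centriole amplification did not pass. Of those that dividing cells use to duplicate centrioles, Stil had a log2 fold change of -0.29 ± 0.215 (SE), Plk4 of -0.06, Cep152 of -0.01, Sass6 of 0.07 and Cenpj of 0.13, and Pcm1, the most abundant gene of the list, had 0.07. The mean levels of E2f4, E2f5 and Tfdp1, the partners of Gmnc and Mcidas, differed by -0.04, -0.02 and -0.01 on the log2 scale.

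Among the relatives and partners of the 10 genes, Foxn4, Fank1 and Stk36 were lower. Foxn4, a forkhead factor of multiciliated precursors, was at 1.46, 2.26 and 1.63 CPM in WT and 0.823, 1.13 and 0.820 CPM in ISM1-/- libraries (log2 fold change -0.95, SE 0.253, adjusted p = 0.0904, edgeR). Fank1, a gene of ciliated cells, went from 9.57 ± 0.437 to 7.14 ± 0.651 CPM (log2 fold change -0.42, adjusted p = 0.0766, edgeR), and Stk36, a kinase needed for the central pair of motile cilia, from 19.3 ± 0.247 to 15.9 ± 0.512 CPM (log2 fold change -0.28, adjusted p = 0.0731, edgeR). Gmnn, geminin, the relative of Gmnc and Mcidas that binds both, had groups that did not overlap, at 7.66 ± 0.313 and 5.88 ± 0.267 CPM. Its log2 fold change was -0.38 (SE 0.105). It narrowly did not pass edgeR's test, with an adjusted p that rounds to the threshold of 0.1. The other RFX factors tested, Rfx1, Rfx5 and Rfx7, had log2 fold changes of 0.12, -0.05 and 0.09. Every ISM1-/- library was above every WT library for Rfx7, which did not pass. The log2 fold changes of Trp63 and Trp53, the relatives of Trp73, were 0.25 and 0.03.

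None of the 13 tested Notch pathway genes passed the test, and their median log2 fold change was -0.01. Groups were apart for Notch4, which was higher (log2 fold change 0.21), and for Hes6, which was lower (-0.16). Notch1, the most abundant, was at 269 ± 22.0 CPM in WT and 266 ± 20.4 CPM in ISM1-/- libraries (SD, n = 3). Hes1, a Notch target, was at 62.4, 54.5 and 49.6 CPM in WT and 93.7, 82.3 and 48.9 CPM in ISM1-/- libraries (log2 fold change 0.43, adjusted p = 0.319, edgeR), and the third ISM1-/- library lay below all WT libraries. Of 15 genes of the linker and basal body, Nek2, a kinase that releases the rootletin linker between centrioles, was the one that passed, at 17.5, 22.1 and 19.1 CPM in WT and 13.1, 14.2 and 14.6 CPM in ISM1-/- libraries (log2 fold change -0.49, SE 0.0990, adjusted p = 0.0375, edgeR). Cep250 and Cep68, partners of rootletin in that linker, had log2 fold changes of 0.08 and 0.13. For both, every ISM1-/- library was above every WT library, and neither passed the test. Groups were apart and higher for 2 genes of the list, and apart and lower for 3. Nin, the most abundant of the list, had a log2 fold change of 0.06. The median of the list was 0.00.

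Some markers of other airway epithelial cells were also lower. Of 10 club and secretory cell markers, 6 were lower and 0 were higher, beside 3.34% and 1.38% of all genes tested. The summed level of the 10 was 27750 to 29650 CPM in WT and 18790 to 22870 CPM in ISM1-/- libraries, with none at 0. Scgb1a1, the club cell secretoglobin, had a log2 fold change of -0.51, Cyp2f2 of -0.42, Bpifa1 of -0.82 and Cbr2 of -0.34 (adjusted p = 0.0270, 0.0214, 0.0409 and 0.0342, edgeR). Scgb3a1, Muc5b, Reg3g and Aldh1a1 did not pass, at log2 fold changes of -0.06, -0.18, -0.02 and -0.02. Of 5 basal cell markers, Krt15 was the 1 that passed, at 2.93 ± 0.271 and 1.44 ± 0.487 CPM (log2 fold change -1.02, adjusted p = 0.0552, edgeR), while Krt5 was at 1.27 ± 0.835 and 0.628 ± 0.101 CPM and did not pass, nor did Ngfr at a log2 fold change of -0.62 with groups apart. The part of airway cell content in the values of the 10 genes was not tested.

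None of 7 alveolar type 2 markers passed the test, their median log2 fold change was -0.02, and Sftpc was at 12500 ± 175 and 12400 ± 502 CPM. Sftpb and Abca3 had lower ISM1-/- libraries without overlap, at log2 fold changes of -0.20 ± 0.0768 and -0.13 ± 0.0593 (SE), near the size of those of Rfx2 and Crocc. None of the 5 tested neuroendocrine markers passed, but all 5 had a lower ISM1-/- mean, with a median log2 fold change of -0.25. Syp, the most abundant, was at 6.38 ± 0.610 and 5.57 ± 0.484 CPM. The 10 cardiomyocyte markers were each lower on average for ISM1-/-, and Myl7 passed (log2 fold change -1.11, adjusted p = 0.0970, edgeR), with Myh6 at 704, 232 and 274 CPM in WT and 122, 177 and 254 CPM in ISM1-/- libraries. Actc1, Sln, Ryr2 and Mybphl had groups apart and did not pass, at log2 fold changes of -0.89, -1.20, -0.99 and -1.19. Without WT replicate 1, the library rich in these markers, 5 of the 10 genes passed the threshold, beside 671 over all genes. With it these numbers were 4 and 882. The part of heart muscle RNA in the values of the 10 genes was not tested.

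The genes whose levels followed the 10 most closely were found by Pearson's r between log2 CPM and the mean standardized level of the 10 over the 6 libraries, among 15865 genes that averaged 1 CPM or more and had reads in every library. The top 5 were Dcaf11, Hhipl1, Togaram2, Epb41l1 and Pomt1, with r from 0.9951 to 0.9970, and their log2 fold changes were -0.13, -0.66, -0.53, -0.19 and -0.23. Taken over the deviations from each genotype's mean, the top 5 were Coq8b, Txnrd1, 2610507B11Rik, Rac3 and Gm26716, with r from 0.9870 to 0.9937. The lists share no gene, and with 6 libraries and this many genes high values arise in number, so they are a description.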

How the data were processed

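The authors enriched poly-A RNA from perfused whole lungs, made strand-specific libraries, sequenced 150-base read pairs and mapped them to GRCm38 with STAR. The deposited values are raw read counts per gene and FPKM, for which the authors divided by 1 length per gene. The counting program, annotation release and strand setting are not given in the sources used here.

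The 3 WT and 3 ISM1-/- libraries were compared in R 4.3.3 with edgeR 4.0.16 (quasi-likelihood test, TMM scaling, at least 0.5 CPM in at least 1 library, no fold minimum, Benjamini-Hochberg adjusted p under 0.1 over 18689 genes). Values per library are TMM-scaled CPM. Every pair of libraries within a genotype differed by more than sampling noise (chi-square per degree of freedom 5.1 to 19.3). Where nothing else is said, n = 3 animals per genotype.

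The 10 genes and the lists were chosen with earlier results of these data known. Text names all 10, list genes that passed (at most 4 per list), the most abundant gene of a list, genes with non-overlapping groups and a log2 fold change of at least 0.5 in size, a few further list genes chosen after their values were seen, and the closest 5 genes by correlation. Alternatives were DESeq2 1.42.0, RLE factors, other filters and thresholds, the replicate number as a block, omission of each library, limma 3.58.1 on log2(FPKM + 0.1), another marker scale and, after seeing the data, another gene length.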

Additional observations from a re-analysis of the deposited data

How the results depend on the processing

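All 10 genes stayed lower in ISM1-/- libraries under every alternative that gave a value (13 each, 12 for Mcidas, which a mean above 2 CPM leaves out). Between 3 and 5 of the 10 passed when 1 library was left out, with Foxj1, Trp73 and Crocc2 passing in all 6 of these fits, Ccno in 3, Myb and Rfx3 in 1, and the other 4 in 0. DESeq2 and a minimum of 0.5 CPM in 3 libraries each gave 5, no filter gave 6, an adjusted p of 0.05 gave 4 and a 2-fold minimum gave 0. The same 2-fold minimum left 0 multiciliated markers and 0 other programme genes. Over all genes, 882 calls became 1285 with DESeq2, 909 with the minimum in 3 libraries and 1632 without a filter. They became 455 at an adjusted p of 0.05 and 106 with a 2-fold minimum. Leaving out 1 library gave 150 to 1470 genes, 1 to 26 multiciliated markers and 0 to 7 other programme genes lower, with the fewest without WT replicate 2 (150, 1 and 0) and the most without ISM1-/- replicate 3 (1470, 26 and 7); the markers numbered 6 without WT replicate 3, 4 without ISM1-/- replicate 1 and 6 without ISM1-/- replicate 2. Other programme genes passing as lower numbered 3 at an adjusted p of 0.05. Those passing as higher numbered 1 with DESeq2, 2 without a filter and 0 to 3 with 1 library left out. The causes were not tested.

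Same-numbered mice are different animals, and their deviations from the genotype means hardly correlated (-0.0274, 0.0313 and 0.0371). The same number was the best match for replicate 3 and not for replicates 1 and 2. The main fit used no pairing, and whether a number marks a shared preparation was not tested. With the replicate block, 5 of the 10 genes, 22 markers and 6 other programme genes were lower and 1 programme gene was higher. Over all genes, 1105 passed in that fit. Ratios to the marker level changed sign between alternatives for Gmnc, Rfx2, Rfx3 and Crocc, with values from -0.12 to 0.18, and stayed below 0 for the other 6 genes. Counts of 29 to 70 for Mcidas limit its precision, and 3 animals per genotype limit all results.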
